A study of Mus musculus with 20 samples.

Results

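Mitochondrial ribosomal proteins were followed as the protein-coding genes whose symbol starts with Mrpl or Mrps and whose mean over 20 mouse hearts was at least 1 FPKM, a count of fragments normalised for exon length in kilobases and for library depth. This gave 77 of the 31874 genes in the table, 48 with the symbol Mrpl and 29 with the symbol Mrps, and no protein-coding gene of these names fell below the minimum. Of the 81 genes with such symbols, the other 4 are processed pseudogenes with means between 0.780 and 2.47 FPKM and were left out. The lowest member was Mrps10 at 1.97 FPKM, so none lay near the minimum.

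RNA was sequenced from the ventricles of isolated, Langendorff-perfused hearts of mice aged 3 months, in 4 groups of 5. Fat1-IR and Fat1-Con hearts came from fat-1 mice, which carry the n-3 desaturase gene of Caenorhabditis elegans and convert n-6 to n-3 polyunsaturated fatty acids. The promoter that drives the transgene is not given in the sources used here. WT-IR and WT-Con hearts came from C57BL/6J mice without the transgene. IR stands for ischemia and reperfusion: these hearts were equilibrated for 40 min, kept without flow for 20 min and reperfused for 60 min, whereas Con hearts were perfused throughout, for 120 min. All groups therefore share isolation and buffer perfusion, which leaves no blood supply to the heart. Each library holds all cells of the tissue, so a difference in the number of cells of a type cannot be told apart from a difference in RNA per cell.

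The mitochondrial ribosome, or mitoribosome, makes the few respiratory chain proteins that the mitochondrial genome encodes. Its ribosomal RNAs come from that genome, whereas its proteins are encoded in the nucleus, made in the cytosol and imported to form a small and a large subunit. Mrps genes are named for the small and Mrpl genes for the large subunit, although the products of Mrps30 and Mrps18a sit in the large subunit in mammalian structures and Mrps36 is now known as a component of the 2-oxoglutarate dehydrogenase complex. The heart depends on oxidative phosphorylation and is rich in these transcripts.

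The table gave 15626856 to 25993323 assigned fragments per heart, the lowest in WT-Con 5. Of the 20 hearts, WT-Con 5 and Fat1-IR 1 stood apart. Transcripts of the mitochondrial genome took 13.9% of assigned fragments in Fat1-IR 1 and 15.1% in WT-Con 5, against 28.4% to 39.3% in the other 18 hearts. The summed FPKM of 10 cardiomyocyte genes was 29418 in Fat1-IR 1 and 42193 in WT-Con 5, against 17846 to 22928 in the others, so the tissue carried its defining markers in every heart. Lymphocyte genes summed to 20.0 FPKM in Fat1-IR 4 and to at most 1.05 FPKM elsewhere. The comparisons of the members are therefore given with all 20 hearts and without WT-Con 5 and Fat1-IR 1.

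Members spanned a 42.3-fold range of mean FPKM, from 1.97 to 83.3, with a median of 12.8, against a median of 2.87 over 13349 other protein-coding nuclear genes tested. In all, 47 members averaged over 10 FPKM and 12 under 5 FPKM. The median was 15.5 FPKM for the Mrpl genes and 9.52 FPKM for the Mrps genes. The 5 most abundant were Mrps21 at 83.3 FPKM, Mrps23 at 65.9 FPKM, Mrpl12 at 64.8 FPKM, Mrpl42 at 48.0 FPKM and Mrpl28 at 46.7 FPKM. Mrpl12 encodes the stalk protein of the large subunit, which also binds the mitochondrial RNA polymerase. Above Mrps10, the least abundant were Mrps30 at 3.36 FPKM and Mrps25 at 3.52 FPKM.

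Mrps21, a small-subunit protein, was at 113, 67.8, 72.9, 79.1 and 81.2 FPKM in Fat1-IR hearts, 64.7, 59.8, 62.1, 71.0 and 60.3 FPKM in Fat1-Con hearts, 73.4, 67.1, 86.2, 86.9 and 85.5 FPKM in WT-IR hearts and 63.2, 65.7, 63.9, 73.3 and 269 FPKM in WT-Con hearts. Apart from Fat1-IR 1 and WT-Con 5, its values lay within 59.8 to 86.9 FPKM. Mrpl12 had 116, 51.3, 52.9, 60.3 and 53.3 FPKM in Fat1-IR hearts, 45.3, 42.8, 45.1, 54.9 and 49.3 FPKM in Fat1-Con hearts, 51.7, 55.8, 63.7, 66.8 and 57.7 FPKM in WT-IR hearts and 47.6, 53.3, 48.0, 64.7 and 215 FPKM in WT-Con hearts. The same 2 hearts were its highest. At the low end Mrps10 had 3.10, 1.99, 1.85, 2.17 and 1.89 FPKM in Fat1-IR hearts, against 1.82, 2.04, 1.72, 1.76 and 2.57 FPKM in WT-Con hearts. Here the 2 hearts were again the top values of their groups, by a smaller ratio.

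**Figure D1:**
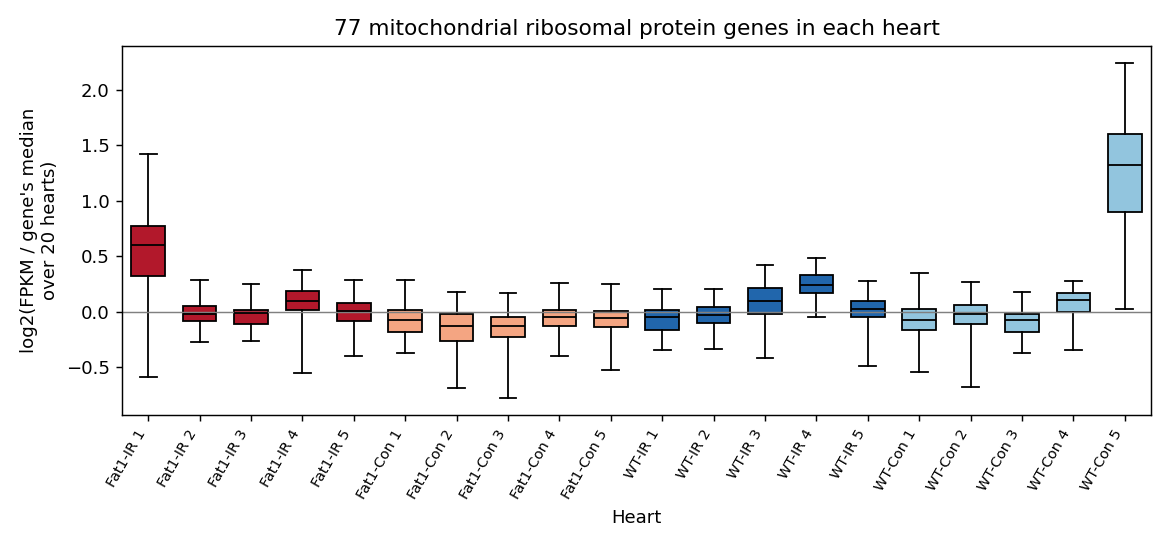
FPKM of the 77 members in each heart, as log2 of the ratio to each gene's median over the 20 hearts (boxes, quartiles with the median line; whiskers, lowest and highest member; colours, the 4 groups of 5 hearts). Fat1-IR 1 and WT-Con 5 are raised as a block, and the medians of the other 18 hearts lie closer to 0.

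The members moved together from heart to heart. Their summed level was 1872, 1220, 1234, 1334 and 1248 FPKM in Fat1-IR hearts, 1157, 1107, 1125, 1212 and 1182 FPKM in Fat1-Con hearts, 1181, 1213, 1361, 1486 and 1280 FPKM in WT-IR hearts and 1178, 1216, 1157, 1326 and 3367 FPKM in WT-Con hearts. In WT-Con 5, 75 of 77 members exceeded every other WT-Con heart and 71 reached their highest value of all 20 hearts. In Fat1-IR 1, 67 of 77 members exceeded every other Fat1-IR heart. The median ratio to the other 4 hearts of the group was 1.5-fold in Fat1-IR 1, where 7 members lay below their group's median, and 2.60-fold in WT-Con 5, where 1 did. With FPKM rescaled to exclude mitochondrial transcripts, these ratios were 1.15-fold in Fat1-IR 1 and 2.07-fold in WT-Con 5. A smaller shift was seen in WT-IR 4, which was kept when Fat1-IR 1 and WT-Con 5 were left out. There 53 of 77 members exceeded every other WT-IR heart. The median ratio was 1.18-fold in WT-IR 4, and 1.05-fold with mitochondrial transcripts excluded. Over all 13426 protein-coding nuclear genes tested, these ratios in WT-IR 4 were 1.13-fold and 1.002-fold, so most of its shift was general. How many of all genes exceeded every other heart of a group is not given here.

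Across all nuclear genes the shift of Fat1-IR 1 and WT-Con 5 was smaller. Related groups of nuclear genes shifted further than the members in WT-Con 5 and by about as much in Fat1-IR 1. The median ratio over all 13426 protein-coding nuclear genes tested was 1.23 in Fat1-IR 1 and 0.991 in WT-Con 5. A ratio over 2 in WT-Con 5 was seen for 56 members, or 72.7%, against 14.3% of those genes. In Fat1-IR 1 it was seen for 7 members, or 9.09%, against 5.50% of those genes. Cytosolic ribosomal proteins, 84 genes, had a median ratio of 1.57 in Fat1-IR 1 and 3.51 in WT-Con 5, and 82 nuclear-encoded subunits of the respiratory chain had 1.52 in Fat1-IR 1 and 3.25 in WT-Con 5. The 13 protein-coding transcripts of the mitochondrial genome had 0.328 in Fat1-IR 1 and 0.511 in WT-Con 5. High mitoribosomal levels thus stood beside low levels of the transcripts that mitoribosomes translate in both hearts.

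Exon length varied with the ratio in WT-Con 5. Members are short, with a median exon length of 2533 bases against 4391 bases for the other coding genes, and short genes were raised more in that heart. Across the 77 members the log2 ratio and log2 exon length had a Pearson's r of -0.35 and a Spearman's rho of -0.40, and across 13426 coding genes -0.53 and -0.56, within 1 library and with genes that are not independent. The 14 members over 5000 bases had a median ratio of 2.34 in WT-Con 5, against 0.748 for 5656 other genes of that length, and the 8 members up to 1000 bases had 3.23, against 2.48 for 376 other genes. In Fat1-IR 1 the same correlation across members was 0.03. Across 13426 coding genes Pearson's r was -0.19 and Spearman's rho -0.23 in that heart, so short genes were raised somewhat more there too. What made these 2 hearts differ was not tested.

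**Figure D2:**
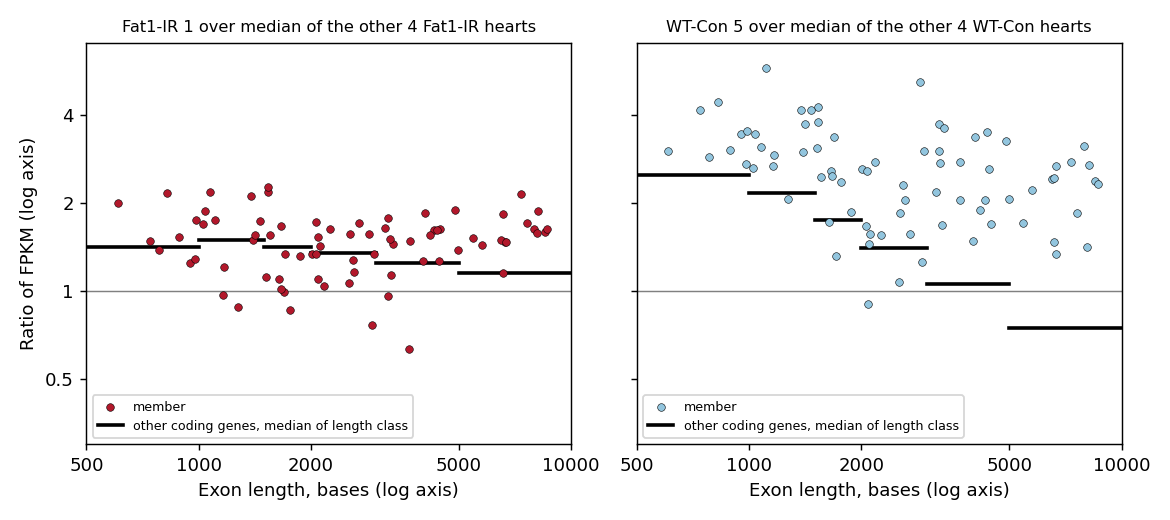
Ratio of each member's FPKM in Fat1-IR 1 (left) and in WT-Con 5 (right) to the median of the other 4 hearts of the group, against exon length in bases, both on log axes (points, members; black bars, median of the other coding genes in each length class). In WT-Con 5 the bars fall with length to 0.748, whereas the members over 5000 bases stay at a median of 2.34.

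Individual members departed from the block. Mrpl52, a large-subunit protein of mitochondria, had the highest ratio in WT-Con 5, at 49.4 FPKM against 7.68, 8.81, 9.61 and 8.19 FPKM in the other WT-Con hearts. Mrps18b, one of the 3 mammalian S18 paralogues, was at 5.42 FPKM in WT-Con 5, against 6.80, 6.44, 5.51 and 5.58 FPKM in the other WT-Con hearts, and was the member below its group's median. Mrpl39 was at 20.9 FPKM in WT-Con 5, within the 18 to 21.3 FPKM of the other WT-Con hearts. Mrpl42 fell below its group in the other heart, at 30.1 FPKM in Fat1-IR 1 against 45.8 to 48.9 FPKM in the remaining Fat1-IR hearts. The shift in these hearts was therefore not uniform across members.

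The same hearts set the spread within groups. The SD of log2 values within groups had a median of 0.36 over the members with all hearts and 0.14 without WT-Con 5 and Fat1-IR 1. The largest were 0.60 for Mrpl52, 0.57 for Mrps6, 0.56 for Mrps16, 0.55 for Mrpl54 and 0.53 for Mrpl12. The smallest were 0.13 for Mrpl39, 0.16 for Mrps5, 0.17 for Mrps18b, 0.17 for Mrps2 and 0.18 for Mrpl10. Without the 2 hearts Mrpl52 had an SD of 0.12, close to the 0.13 of Mrpl39, and the most variable members were Mrpl43 at 0.25 and Mrps6 at 0.24.

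With all 20 hearts, no member passed the test in any comparison. The test was limma on log2(FPKM + 0.1) over 18219 genes, with Benjamini-Hochberg adjustment. To be called, a gene had to change by more than 1.5-fold at an adjusted p below 0.05. The smallest adjusted p of a member in any comparison was 0.21, and voom on the recovered fragments called 0 members as well.

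In Fat1-IR against WT-IR hearts, which compares the genotypes after IR, the median log2 fold change of the members was 0.07, against 0.03 over all genes tested. There were 0 members called, against 0.104% of all genes, and 1 member had an unadjusted p under 0.05, against 6.81% of all genes. Mrpl16, a core protein of the large subunit, had 29.5, 18.6, 18.2, 17.4 and 17.7 FPKM in Fat1-IR hearts, against 13.4, 13.4, 15.4, 17.7 and 13.6 FPKM in WT-IR hearts. All but WT-IR 4 lay below the Fat1-IR hearts, and the log2 fold change was 0.44 ± 0.19 (SE; adjusted p = 0.67, limma). Mrps22 at 0.23 ± 0.13 and Mrps27 at 0.19 ± 0.14 followed among those above 0, and Mrps18b at -0.15 ± 0.12, Mrps2 at -0.14 ± 0.12 and Mrpl42 at -0.15 ± 0.18 among those below. The members' median was -0.05 without the 2 hearts, against -0.03 over all genes, and Mrpl16 was at 0.30 ± 0.08 (adjusted p = 0.16, limma). In that fit 0 members passed an adjusted p of 0.05 at any fold, against 0.329% of all genes, or the call with its fold threshold, against 0.225%.

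In Fat1-Con against WT-Con hearts, the genotypes without IR, the members' median was -0.33, against -0.01 over all genes, and 76 of 77 lay below 0. None was called, against 0.0274% of all genes, and 10 members had an unadjusted p under 0.05, all lower in Fat1-Con, against 5.63% of all genes in either direction. Mrpl35 led with -0.41 ± 0.17, followed by Mrpl44, an RNase III-like protein, with -0.35 ± 0.15 and Mrpl4 with -0.37 ± 0.16 (SE; adjusted p = 0.76 for each, limma), and only Mrpl39, at 0.06 ± 0.10, lay above 0. Mrpl35 had 6.60, 6.46, 6.43, 6.15 and 6.66 FPKM in Fat1-Con hearts, against 7.14, 7.69, 7.38, 8.22 and 14.4 FPKM in WT-Con hearts. These groups did not overlap, also without WT-Con 5, but without the 2 hearts the difference was -0.23 ± 0.09 (adjusted p = 0.95, limma). The members' median then was -0.07, against -0.01 over all genes, with 57 of 77 below 0. In that fit 0 members were called or passed an adjusted p of 0.05, against 0.0329% of all genes by either rule.

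In WT-IR against WT-Con hearts, the response to IR without the transgene, the members' median was -0.17 with all hearts, against 0.04 over all genes. None was called, against 3.20% of all genes, and 2 members had an unadjusted p under 0.05, against 14.9% of all genes. These were Mrps22 at -0.34 ± 0.13 (adjusted p = 0.21) and Mrpl4 at -0.36 ± 0.16 (adjusted p = 0.28), followed by Mrps34 at -0.31 ± 0.15, whereas Mrpl27 at 0.05 ± 0.29, Mrps6 at 0.03 ± 0.33 and Mrpl22 at 0.02 ± 0.22 were among the 4 above 0 (SE, limma). The members' median had the other sign without the 2 hearts, 0.09, against 0.06 over all genes. The call with its fold threshold then took 0 members, against 4.75% of all genes. Mrpl52 passed an adjusted p of 0.05 without a fold threshold, 1 member against 4.97% of all genes that were higher by that rule. That count was 5 when WT-Con 4 was left out as well, 4 without WT-IR 2, 3 without WT-IR 5, and 1 or 2 without any other heart. The share of all genes in those fits is not given here.

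In Fat1-IR against Fat1-Con hearts, the response to IR with the transgene, the members' median was 0.22 with all hearts, against 0.08 over all genes, and 72 of 77 lay above 0. None was called, against 2.0% of all genes, and 1 had an unadjusted p under 0.05, Mrps6, against 12.5% of all genes. Mrps6 was at 0.74 ± 0.33 (adjusted p = 0.35), followed by Mrps14 at 0.40 ± 0.22 and Mrps27 at 0.27 ± 0.14, and the members below 0 included Mrps18b at -0.18 ± 0.12, Mrpl39 at -0.03 ± 0.10 and Mrpl42 at -0.03 ± 0.18 (SE, limma). The median was 0.09 without the 2 hearts, against 0.02 over all genes. With the fold threshold 0 members were called, against 2.62% of all genes. Without it Mrpl52 and Mrps24 were higher, 2 members against 2.09% of all genes. That count lay between 0, without Fat1-IR 5, and 3, without WT-IR 5, when another heart was left out. Shares of all genes in those fits are not given here.

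**Figure D3:**
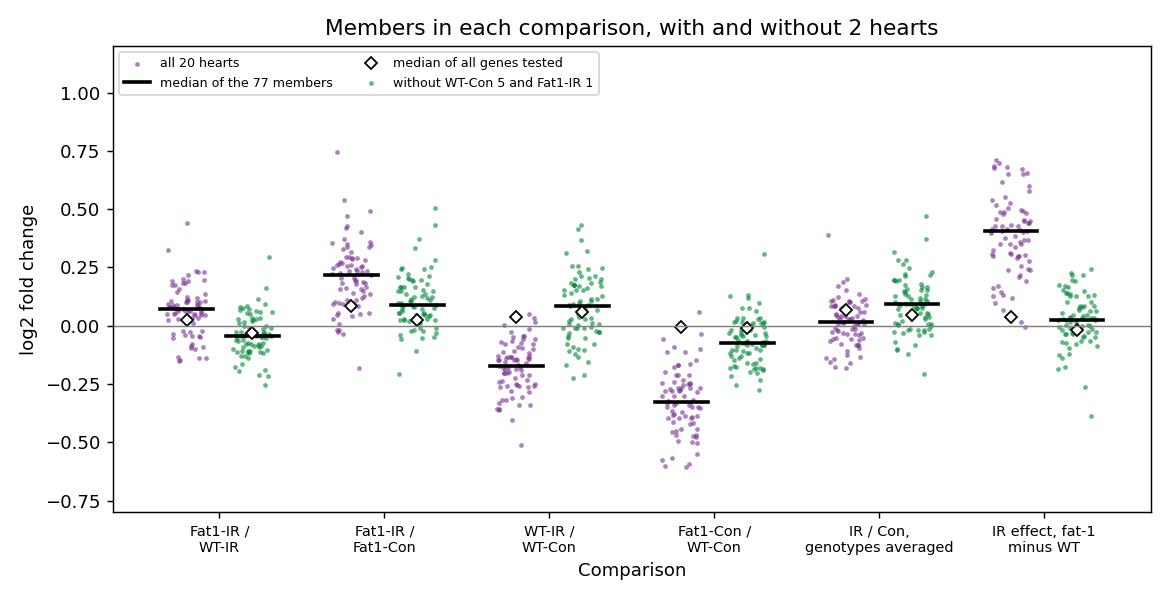
The log2 fold changes of the 77 members in the 6 comparisons, with all 20 hearts (left of each pair) and without WT-Con 5 and Fat1-IR 1 (right of each pair); bars are the members' medians and diamonds the medians of all 18219 genes tested. The medians of -0.33 in Fat1-Con against WT-Con and 0.40 in the interaction shrink to -0.07 and 0.03 without the 2 hearts.

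The interaction, the effect of IR in fat-1 hearts minus that in WT hearts, rested on the same 2 hearts. With all hearts the members' median was 0.40, against 0.04 over all genes, 76 of 77 members lay above 0, and 11 were past 1.5-fold. The share of all genes past 1.5-fold at any p is not given here. No member passed the test, against 0.00549% of all genes called, and 1 had an unadjusted p under 0.05, against 5.31%. That was Mrps22 at 0.43 ± 0.19, followed by Mrpl41 at 0.66 ± 0.33 and Mrps27 at 0.40 ± 0.20, each with an adjusted p of 0.83, and Mrps18b at -0.005 ± 0.17 was the member not above 0 (SE, limma). Without the 2 hearts the members' median was 0.03, against -0.02 over all genes, no member was past 1.5-fold, and 0 members passed by either rule, against 0.00549% of all genes. The lead was then Mrpl27, the counterpart of a bacterial protein near the peptidyl transferase centre, at -0.39 ± 0.18 (adjusted p = 0.81, limma).

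The response to IR was also averaged over the genotypes. With IR averaged over the genotypes and all 20 hearts, the members' median was 0.02, against 0.07 over all genes, 0 members were called, against 4.34% of all genes, and 1 had an unadjusted p under 0.05, against 19.1%. That was Mrps18b, at -0.18 ± 0.08 (adjusted p = 0.24), and Mrpl4 at -0.15 ± 0.11 and Mrps22 at -0.12 ± 0.09 were next below 0, with Mrps6 at 0.39 ± 0.23, Mrps14 at 0.19 ± 0.15 and Mrpl9 at 0.11 ± 0.11 above 0 (SE, limma). Without WT-Con 5 and Fat1-IR 1 the median was 0.09, against 0.05 over all genes, and 61 of 77 lay above 0. With the fold threshold 0 members were called, against 5.41% of all genes. At an adjusted p under 0.05 without a fold threshold, 11 members were higher after IR and 0 lower, against 8.66% of all genes higher. The 11 members are 14.3% of the 77, and 7 of them are Mrps genes.

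Fold changes of these 11 members were small, between 1.11 and 1.38. Mrpl52 rose by a log2 fold change of 0.37 ± 0.06 (adjusted p = 3.0e-04), Mrps24 by 0.28 ± 0.06 (adjusted p = 0.0051) and Mrps6 by 0.47 ± 0.11 (adjusted p = 0.0056; SE, limma). Mrps24 is the counterpart of bacterial S3, which lines the path of the messenger RNA. The others were Mrps21 at 0.25, Mrps14 at 0.27, Mrps16 at 0.28, Mrps33 at 0.23, Mrps15 at 0.22, Mrpl54 at 0.19, Mrpl58 at 0.22 and Mrpl28 at 0.15. Mrpl58 encodes a peptidyl-tRNA hydrolase, built into the large subunit, that frees stalled chains. With all 20 hearts the same 11 members had adjusted p between 0.40 and 0.94.

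How many members passed followed the scaling. Without the 2 hearts, 27 members were higher when FPKM was rescaled to exclude mitochondrial transcripts, 10 with median-of-ratios factors and 3 as TPM, which were Mrpl52, Mrps6 and Mrps24. At an adjusted p under 0.05, median-of-ratios scaling also gave Mrps18b as lower. The share of all genes that passed under each scaling is not given here, so these counts cannot be set against it. Fibroblast markers moved with IR as well: their summed level was 156.3 to 166.5 FPKM in Fat1-IR hearts other than 1 and 4 and 128.2 FPKM in Fat1-IR 4, against 138.3 to 144.7 FPKM in Fat1-Con hearts, and 175.7 to 215.3 FPKM in WT-IR hearts, against 131.5 to 150.6 FPKM in WT-Con hearts without WT-Con 5. Adipocyte markers summed to 80.9 to 123.6 FPKM in Fat1-IR hearts other than 1, against 55.9 to 75.04 FPKM in Fat1-Con hearts, and to 91.8 to 132.3 FPKM in WT-IR hearts, against 59.2 to 70.1 FPKM in WT-Con hearts without WT-Con 5. These groups did not overlap. Most of the sum was Fabp4, which endothelial cells also express. Over the 20 hearts the markers averaged 88.1 FPKM for Fabp4, 8.02 for Cfd, 1.33 for Adipoq, 0.267 for Plin1 and 0.037 for Lep. The change of each adipocyte marker with IR is not given here. In Fat1-IR 1 the adipocyte sum was 248.8 FPKM and in WT-Con 5 it was 173.5 FPKM. Macrophage markers summed to 121.5 to 134.0 FPKM in Fat1-IR hearts other than 1, against 103.5 to 142.6 FPKM in Fat1-Con hearts, which overlapped. In WT-IR hearts they summed to 170.4 to 192.1 FPKM, against 108.0 to 152.9 FPKM in WT-Con hearts without WT-Con 5. Endothelial markers summed to 107.6 to 128.0 FPKM in Fat1-IR hearts other than 1, against 94.7 to 115.1 FPKM in Fat1-Con hearts, and to 121.5 to 157.5 FPKM in WT-IR hearts, against 95.3 to 123.1 FPKM in WT-Con hearts without WT-Con 5, with overlap in both genotypes. The part of cell composition in the members' response was not tested.

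Mrpl52 had the smallest p among the members in this comparison. It had 20.7, 10.6, 11.5, 12.3 and 12.0 FPKM in Fat1-IR hearts, against 9.19, 7.75, 8.45, 9.50 and 9.89 FPKM in Fat1-Con hearts. In WT-IR hearts it had 11.1, 11.7, 11.7, 10.4 and 10.4 FPKM, against 7.68, 8.81, 9.61, 8.19 and 49.4 FPKM in WT-Con hearts. Every IR heart lay above every Con heart other than WT-Con 5, in both genotypes. Leaving out the 2 hearts, the log2 fold change was 0.37 ± 0.08 in fat-1 hearts (adjusted p = 0.014) and 0.37 ± 0.08 in WT hearts (adjusted p = 0.0093; SE, limma).

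Mrps24 had 36.1, 20.0, 19.9, 21.7 and 21.6 FPKM in Fat1-IR hearts, against 17.2, 14.8, 15.9, 20.9 and 14.2 FPKM in Fat1-Con hearts, and 21.7, 21.7, 22, 22.7 and 21.7 FPKM in WT-IR hearts, against 16.6, 19.3, 19.0, 20.0 and 79.8 FPKM in WT-Con hearts. In WT hearts the groups did not overlap apart from WT-Con 5, and in fat-1 hearts Fat1-Con 4 lay among the IR hearts. With the 2 hearts left out the log2 fold change was 0.33 ± 0.09 in fat-1 hearts (adjusted p = 0.042) and 0.23 ± 0.09 in WT hearts (adjusted p = 0.12; SE, limma). Mrps24 shares 226 exon bases, 15.4% of its exons, with Urgcp on the same strand.

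Mrps6, the counterpart of bacterial S6, had 18.1, 8.23, 8.04, 7.83 and 7.15 FPKM in Fat1-IR hearts, against 5.86, 5.17, 5.34, 6.39 and 4.76 FPKM in Fat1-Con hearts. In WT-IR hearts it had 7.81, 7.66, 9.07, 8.17 and 4.83 FPKM, against 5.72, 4.22, 5.86, 6.07 and 22 FPKM in WT-Con hearts. All Fat1-IR hearts exceeded all Fat1-Con hearts, whereas WT-IR 5 lay among the WT-Con hearts. Leaving out Fat1-IR 1 and WT-Con 5, the log2 fold change was 0.50 ± 0.15 in fat-1 hearts (adjusted p = 0.072) and 0.43 ± 0.15 in WT hearts (adjusted p = 0.081; SE, limma). Its first exon overlaps that of Slc5a3, a sodium-dependent myo-inositol transporter on the same strand, and the 2 genes share 159 exon bases, 10.4% of the exons of Mrps6.

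Slc5a3 itself had 4.0, 3.33, 3.13, 2.58 and 3.67 FPKM in Fat1-IR hearts, against 0.552, 0.465, 0.352, 0.642 and 0.471 FPKM in Fat1-Con hearts, and 2.57, 2.06, 1.77, 0.417 and 0.774 FPKM in WT-IR hearts, against 0.513, 0.520, 0.676, 0.526 and 0.352 FPKM in WT-Con hearts. With all hearts it rose by 2.53 ± 0.33 on the log2 scale in fat-1 hearts (adjusted p = 1.3e-04) and by 1.17 ± 0.33 in WT hearts (adjusted p = 0.048; SE, limma), and in WT hearts the adjusted p was 0.067 without the 2 hearts. WT-IR 4 had a high Mrps6 value and no raised Slc5a3. WT-IR 5 had the lowest Mrps6 value of its group, 4.83 FPKM, and a low Slc5a3 value, 0.774 FPKM. How fragments in the shared bases were assigned is not given in the sources used here, and their part in the Mrps6 difference was not tested.

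**Figure D4:**
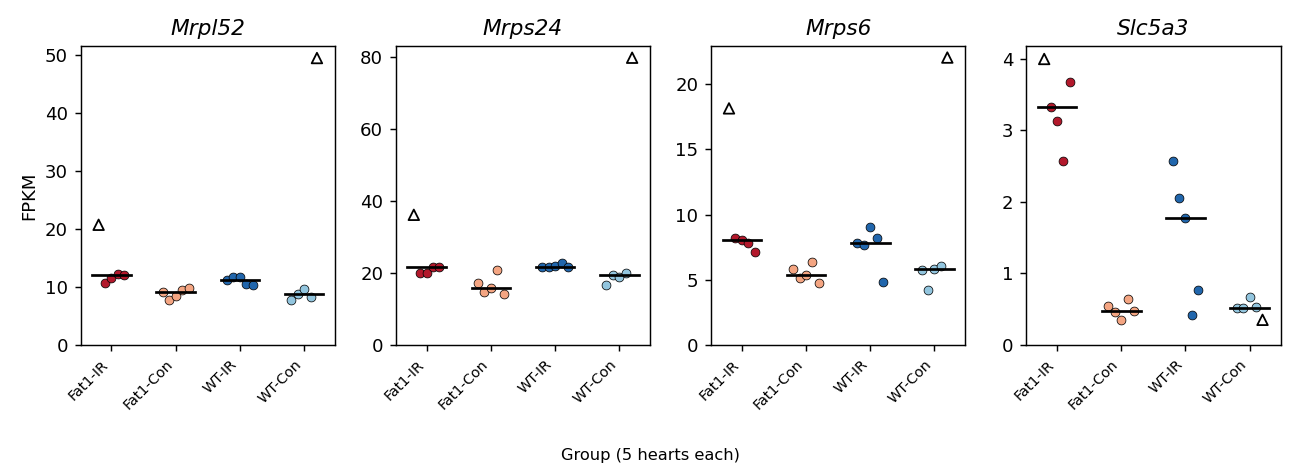
FPKM of Mrpl52, Mrps24, Mrps6 and the gene Slc5a3 in each heart of the 4 groups (points, hearts; open triangles, Fat1-IR 1 and WT-Con 5; bars, the median of all 5 hearts). Mrpl52 separates IR from Con hearts in both genotypes apart from WT-Con 5, and Slc5a3 is high in all 5 Fat1-IR hearts and in 3 of 5 WT-IR hearts.

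The remaining members that rose kept to the same range. Mrps16, for example, had 12.4, 7.47, 7.56, 8.55 and 8.31 FPKM in Fat1-IR hearts, against 6.72, 6.42, 5.81, 7.64 and 7.04 FPKM in Fat1-Con hearts. Mrps14 had 14.5, 9.93, 8.84, 9.82 and 9.39 FPKM in Fat1-IR hearts, against 7.90, 6.95, 7.40, 8.55 and 8.24 FPKM in Fat1-Con hearts. For Mrps14 these groups did not overlap, and for Mrps16 Fat1-Con 4 lay above 2 Fat1-IR hearts. Without the 2 hearts, 5 members had non-overlapping Fat1-IR and Fat1-Con hearts (Mrpl42, Mrpl52, Mrpl58, Mrps14 and Mrps6) and 3 had non-overlapping WT-IR and WT-Con hearts (Mrpl52, Mrps15 and Mrps24), higher after IR in each case, against 4.67% and 6.19% of all genes in the same comparisons.

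The IR effects of the 2 genotypes can be set beside each other, since they share no heart. Without WT-Con 5 and Fat1-IR 1 they had a Pearson's r of 0.63 and a Spearman's rho of 0.59 across the 77 members, with 49 members above 0 in both and 8 below 0 in both. With all 20 hearts r was 0.15 and rho 0.09, with 4 members above 0 in both and 5 below 0 in both. Members are not independent, since all come from the same libraries. Mrpl27 was the member farthest from equal effects, at 0.03 ± 0.13 in fat-1 hearts and 0.42 ± 0.13 in WT hearts (SE, without the 2 hearts).

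**Figure D5:**
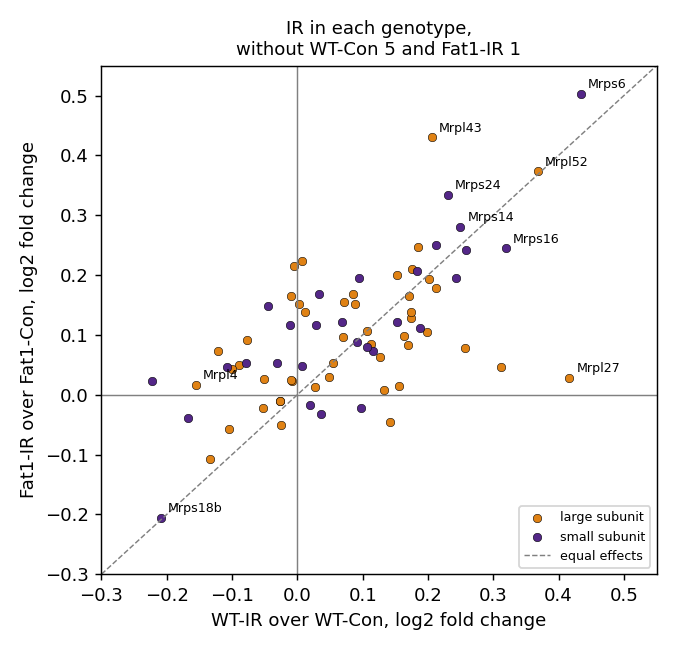
Effect of IR on each member in fat-1 hearts (vertical) and in WT hearts (horizontal), as log2 fold changes without WT-Con 5 and Fat1-IR 1 (colours, Mrpl and Mrps genes; dashed line, equal effects). Mrpl52 lies on the line at 0.37 in both genotypes, Mrps6 is at the upper right and Mrps18b at the lower left, at -0.21 in both.

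Beside the members, other gene groups were followed with IR averaged over the genotypes. With all 20 hearts 0 of 84 cytosolic ribosomal proteins, 0 of 82 nuclear-encoded respiratory chain subunits and 0 of 13 mitochondrial protein-coding transcripts passed an adjusted p of 0.05 in that comparison, with median log2 fold changes of 0.17, 0.03 and 0.01. Without the 2 hearts, 68 of the 84 cytosolic ribosomal proteins were higher and 0 lower at an adjusted p under 0.05, with a median log2 fold change of 0.30. Of the 82 respiratory chain subunits 37 were higher and 2 lower, with a median of 0.14. Of the 13 mitochondrial transcripts 0 passed, with a median of 0.10, against 0.09 for the 77 members. The difference between these groups of genes was not tested.

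Lists of genes that work with the mitoribosome were also followed. None of 6 subunits with other symbols, such as Dap3 and Ptcd3, and none of 14 translation factors passed an adjusted p of 0.05 in any comparison, with or without the 2 hearts. Of 22 genes of assembly and ribosomal RNA modification, 0 passed with all hearts and Mpv17l2, a protein of the inner membrane needed for mitoribosome assembly, was higher after IR without the 2 hearts. Mpv17l2 had 6.52, 4.03, 3.54, 4.35 and 4.69 FPKM in Fat1-IR hearts, against 2.60, 2.28, 2.13, 3.75 and 2.50 FPKM in Fat1-Con hearts, and 5.95, 4.38, 6.50, 5.39 and 5.64 FPKM in WT-IR hearts, against 3.07, 3.30, 3.74, 3.76 and 14.7 FPKM in WT-Con hearts. It rose, without the 2 hearts, by 0.65 ± 0.14 on the log2 scale in fat-1 hearts (adjusted p = 0.015) and by 0.66 ± 0.14 in WT hearts (adjusted p = 0.0080; SE, limma), against at most 0.50 in fat-1 hearts and 0.43 in WT hearts for a member.

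Of 17 mitochondrial tRNA synthetases, Nars2, which charges the asparagine tRNA, passed in fat-1 hearts and with IR averaged over the genotypes, lower after IR in both. It had 1.47, 0.859, 1.46, 1.33 and 1.22 FPKM in Fat1-IR hearts, against 2.17, 1.98, 2.24, 1.80 and 2.08 FPKM in Fat1-Con hearts. The groups did not overlap, and with all hearts its log2 level fell by 0.67 (SE 0.14, adjusted p = 0.013, limma), and without the 2 hearts by 0.73 (SE 0.15, adjusted p = 0.0076). In WT hearts Nars2 had 1.47, 1.26, 1.28, 1.92 and 1.37 FPKM after IR, against 1.81, 2.08, 1.65, 2.08 and 1.85 FPKM in WT-Con hearts, with WT-IR 4 among the WT-Con hearts. That difference did not pass, at -0.37 ± 0.14 with all hearts (adjusted p = 0.21) and -0.37 ± 0.15 without the 2 hearts (adjusted p = 0.13; SE, limma). The interaction did not pass either, at -0.31 ± 0.20 with all hearts (adjusted p = 0.83, limma). Averaged over the genotypes, Nars2 fell by 0.52 with all hearts (SE 0.10, adjusted p = 0.0025, limma). Without the 2 hearts that fall was 0.55 (SE 0.10, adjusted p = 0.0014, limma). Of 12 genes of mitochondrial transcription and RNA stability, Lrpprc, which stabilises mitochondrial messenger RNAs, passed without the 2 hearts in WT hearts, where it fell by 0.30 (adjusted p = 0.029, against 0.50 with all hearts). Averaged over the genotypes, Lrpprc fell by 0.19 without the 2 hearts (adjusted p = 0.032, limma). Another list held 9 genes taken as regulators of mitoribosomal promoters. Of these, Gabpb1, Gabpa and Myc were lower in WT-IR than in WT-Con hearts without the 2 hearts. Gabpb1 and Gabpa encode the subunits of the GABP factor. On the log2 scale Gabpb1 fell by 0.59 (adjusted p = 0.013), Gabpa fell by 0.26 (adjusted p = 0.042) and Myc fell by 0.88 (adjusted p = 0.048, limma). Averaged over the genotypes, also without the 2 hearts, Gabpb1 fell by 0.47 (adjusted p = 0.0034) and Gabpa by 0.23 (adjusted p = 0.0075, limma). Myc did not pass there (adjusted p = 0.10, limma). None of these 9 genes passed with all hearts.

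Promoters were read from RefSeq (build GRCm38.p6), as 250 bases before to 50 after the start, and 68 of 77 members matched. Mrpl4, Mrpl13, Mrpl15, Mrpl19, Mrpl38, Mrpl54, Mrps28, Mrps34 and Mrps35 did not. The letters searched on both strands were CGCATGCG, the core of the site of NRF1, CCGGAAG, that of ETS factors such as GABP, AAGATGGCG, that of YY1, and GGGCGG, that of SP1. The ETS letters were in 24 members, or 35.3%, against 17.4% of 10432 other genes tested and 9.12% of all 27025 promoters. The NRF1 letters were in 7 members, or 10.3%, against 3.69% and 1.91%, and the YY1 letters in 8 members, or 11.8%, against 3.02% and 1.49%. The SP1 letters were in 34 of the 68 members, against 63.1% and 35.9%. Any of the NRF1, ETS and YY1 letters were also in 34 of the 68, against 22.6% of the other genes tested. The difference was not tested.

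The 120 bases before the start are shown for 4 members, with the matching letters in capitals. Mrpl52 and Mrps24 had the smallest p after IR, Mrpl58 rose after IR and has ETS letters next to the start, and Mrpl22 carries both ETS and NRF1 letters. Mrps24 has SP1 letters at 2 adjoining places on the other strand, and the last 2 letters shown for Mrpl58 begin another ETS match that runs past the start. A match describes letters and is not a bound site.
Mrpl52 (chr14:54426789-54426908, plus strand): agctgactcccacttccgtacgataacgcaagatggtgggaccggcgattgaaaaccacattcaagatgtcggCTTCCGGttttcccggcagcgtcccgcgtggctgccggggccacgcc
Mrps24 (chr11:5707702-5707821, minus strand): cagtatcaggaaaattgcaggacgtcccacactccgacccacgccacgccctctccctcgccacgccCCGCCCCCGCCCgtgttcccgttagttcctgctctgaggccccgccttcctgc
Mrpl58 (chr11:115403632-115403751, plus strand): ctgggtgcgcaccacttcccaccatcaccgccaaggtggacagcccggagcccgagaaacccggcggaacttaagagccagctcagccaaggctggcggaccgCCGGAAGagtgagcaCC
Mrpl22 (chr11:58171544-58171663, plus strand): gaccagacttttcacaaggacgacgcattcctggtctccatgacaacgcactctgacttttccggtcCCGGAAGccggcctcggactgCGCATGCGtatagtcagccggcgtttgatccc

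Members often lay close to another gene. A protein-coding neighbour on the opposite strand whose start lay within 1000 bases, in head-to-head orientation, was found for 18 members, or 23.4%, against 9.48% of the other coding genes tested. Examples are Mrpl32 and the proteasome gene Psma2 at 75 bases, Mrpl49 and Fau at 59 bases, Mrpl54 and Apba3 at 26 bases, and Mrps12 and the mitochondrial tRNA synthetase gene Sars2 at 172 bases. Members lay on 17 chromosomes, 11 of them on chromosome 11.

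Exons of 29 members share bases with exons of another gene in the table, and whether counting used strand is not given in the sources used here, so reads from such bases cannot be told apart. The share was over 20% of the member's exons for 8: Mrps25 with Nr2c2 (69.8%), Mrps34 with Mapk8ip3 (63.4%), Mrpl19 with Gcfc2 (36.0%), Mrpl43 with Twnk (33.4%), Mrps18b with Gm16279 (30.5%), Mrpl24 with Rrnad1 (26.3%), Mrps27 with 6430562O15Rik (24.2%) and Mrps18c with Gm43511 (23.2%). Mrpl43 and Twnk, the helicase of the mitochondrial genome, had similar mean levels of 6.29 and 6.10 FPKM. Mrpl46 and Mrps11 overlap each other by 173 bases. The remaining 19 share less: Mrps24 with Urgcp, Mrps6 with Slc5a3 and Gm49711, Mrpl10 with Gm11574, Mrpl13 with Mtbp, Mrpl14 with Tmem63b, Mrpl18 with Tcp1, Mrpl21 with Ighmbp2, Mrpl27 with Eme1, Mrpl3 with Gm38077, Mrpl36 with Ndufs6, Mrpl44 with Wdfy1, Mrpl47 with Ndufb5 and Actl6a, Mrpl48 with Rab6a, Mrpl49 with Syvn1, Mrpl58 with Ict1os, Mrpl9 with Oaz3, Mrps26 with 4930473A02Rik, Mrps30 with B430218F22Rik and Mrps7 with Gga3 and Mif4gd.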

How the data were processed

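The authors extracted RNA with TRIzol from the ventricles of 20 hearts and prepared NEBNext Ultra libraries, which were read on a HiSeq instrument. The submitters' processing notes name HISAT2, featureCounts and mm10, with no version given in the sources used here. The deposited values are FPKM per gene and heart. Multiplied by the exon lengths of GENCODE M21, they gave whole fragments, within 0.02 and under 1000 fragments, for 30746 of 31217 genes (98.5%), and 657 IDs are not in that annotation. Names, exon lengths and overlaps come from it.

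Values were taken as log2(FPKM + 0.1) for the 18219 genes whose mean reached 0.1 FPKM, while 13655 were lower. limma 3.58.1 in R 4.3.3 fitted 4 group means with variance trended on expression. Tests were two-sided, with Benjamini-Hochberg adjustment over all genes tested. Fold changes on this scale understate those of low genes. The fit was tested on simulated data. Each group has 5 separate hearts, and equal replicate numbers did not pair the hearts. Tables were made with Python 3.11.15, pandas 2.3.3 and numpy 2.4.6.

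The members and lists were chosen with earlier results of these data known. Named are members called, the 3 with the smallest p in each direction and comparison, the 5 highest and 3 lowest, the 5 most and 5 least variable, those sharing exons with another gene, Mrps6, and at most 3 genes of each list. The 11 members at any fold without the 2 hearts, and members given as exceptions in single hearts or as examples, were named after their values were seen. Alternatives were the pseudocount, filter, scaling, samples fitted, replicate block, trend, array weights, fold threshold, voom and leaving out hearts.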

Additional observations from a re-analysis of the deposited data

Results flagged for a closer look

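Fat1-IR 1 and WT-Con 5 lay far from the other 4 hearts of their groups. The gap to the nearest heart was divided by the range of the group. This ratio was above the critical value of 0.71 for 5 hearts in 11 of 24 group and quantity pairs looked at. For the summed FPKM of the members it was 0.825 in Fat1-IR 1 and 0.924 in WT-Con 5. For Mrpl52 it was 0.834 in Fat1-IR 1 and 0.954 in WT-Con 5, for Mrps24 0.891 in Fat1-IR 1 and 0.946 in WT-Con 5, for Mrps6 0.902 in Fat1-IR 1 and 0.896 in WT-Con 5, and for Mrpl12 0.861 in Fat1-IR 1 and 0.898 in WT-Con 5. For Mrps21 it was 0.951 in WT-Con 5, and 0.705, under the critical value, in Fat1-IR 1. In WT-IR 4, which was kept, it was 0.7096 for Mrps24, just under the critical value. All 11 were gaps at the top of the range. The members share these hearts, so the values are not independent. Mrpl52, Mrps6 and Mrpl12 are also among the 5 members with the largest SD within groups, which these hearts set. The count of 11 can therefore not be set against a chance rate.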

How the results depend on the processing

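No member was called under the alternatives for which calls were counted, with 1 exception. That was Mrps6, at 0.59 on the log2 scale, with IR averaged over the genotypes when WT-Con 5 alone was left out. Leaving out any other single heart gave 0. The members' median in the interaction moved to 0.066 with array weights, 0.027 without WT-Con 5 and Fat1-IR 1, and 0.001 without Fat1-IR 4 as well. Without WT-Con 5 and Fat1-IR 1, further alternatives were chosen after seeing the data. For these, members at an adjusted p under 0.05 without a fold threshold were counted, and calls with the threshold were not. The 11 members higher with IR averaged became 27 with scaling without mitochondrial transcripts and 3 as TPM, and 8 to 15 when another heart was left out. The 1 member higher in WT-IR against WT-Con became 4 with a minimum of 1 FPKM, 2 among protein-coding genes, 16 with scaling without mitochondrial transcripts and 0 as TPM, and 1 to 5 when another heart was left out (5 without WT-Con 4). The 2 members higher in Fat1-IR against Fat1-Con became 1 with no filter, no trend, TPM or without Fat1-IR 4, 4 with scaling without mitochondrial transcripts, and 0 to 3 when another heart was left out (0 without Fat1-IR 5). With the replicate block, 5 members were higher in WT-IR against WT-Con, 3 in Fat1-IR against Fat1-Con and 11 with IR averaged. The shares of all genes that passed under these alternatives are not given here, so the member counts cannot be set against them. Hearts with the same number had residual correlations between -0.136 and 0.06, so the numbers do not pair them. Values near 0 changed sign. In Fat1-IR against WT-IR, Mrpl42 was 0.003 with array weights. In Fat1-IR against Fat1-Con, Mrpl39 was 0.016 as TPM and -0.051 to 0.013 when a heart was left out, and Mrpl42 was 0.07 with array weights, 0.011 as TPM, 0.097 without the 2 hearts, 0.083 without Fat1-IR 4 as well, and -0.077 to 0.097 when a heart was left out. In WT-IR against WT-Con, Mrpl27 was -0.013 as TPM, Mrps6 -0.01 with median-of-ratios factors and -0.03 as TPM, and Mrpl22 -0.028 with these factors and -0.048 as TPM. When a heart was left out, Mrpl27 ranged from -0.1 to 0.416, Mrps6 from -0.156 to 0.434 and Mrpl22 from -0.11 to 0.311. In the interaction, Mrps18b was 0.003 with array weights, 0.102 as TPM, 0.003 without the 2 hearts and -0.063 to 0.08 when a heart was left out. The causes of these changes were not tested. What size of change the fit could detect was looked at only in the simulated data, and that result is not reported here. In those data no heart shifted as a block.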
